A study of Mus musculus with 18 samples.

Results

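The small leucine-rich proteoglycans are secreted matrix proteins built on a core of leucine-rich repeats, and the 10 family genes described here are Dcn (decorin), Bgn (biglycan), Aspn (asporin), Fmod (fibromodulin), Lum (lumican), Prelp, Omd (osteomodulin), Kera (keratocan), Ogn (osteoglycin) and Epyc (epiphycan). They were taken by symbol from the 46983 genes of the deposited expression table, and all 10 were found. Their levels were followed in lipochondrocytes, the lipid-storing chondrocytes of the mouse ear cartilage plate, at postnatal days 8, 10, 13, 21 and 33 (P8 to P33), and in adipocytes from inguinal fat of P33 mice. Each of the 6 groups had 3 libraries. Every mouse carried Wnt1-Cre2 and TdTomato on a C57BL/6 background, adipocyte donors included. Wnt1-Cre2 is active in the neural crest and labels its descendants. Digestion with collagenase freed the P8, P10 and P13 cells, which were then sorted for high TdTomato. The 2 later stages and the fat cells were not sorted: centrifugation separated them by their buoyancy. Stage and isolation therefore cannot be told apart between P13 and P21. The labels do not say whether replicates were separate animals or pools, so p-values measure the spread between these libraries, which may be technical.

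These proteins bind fibrillar collagens, limit the width of collagen fibrils and bind growth factors such as transforming growth factor beta. Biglycan and decorin carry chondroitin or dermatan sulfate chains, fibromodulin, lumican, osteomodulin and keratocan can carry keratan sulfate, and asporin and PRELP are usually found without such chains. In cartilage, biglycan is abundant around the cells, fibromodulin and PRELP bind collagen II fibrils, and epiphycan is best known from the growth plate. Decorin and lumican are also typical products of fibroblasts, keratocan is known from cornea and tendon, and osteomodulin and osteoglycin were first described in bone.

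The libraries held 12461965 to 27640142 total reads, of which 73.19% to 84.44% aligned. Of 15 chondrocyte markers, 14 reached 1 FPKM (fragments per kilobase of gene, scaled to sequencing depth) at P8, P13, P21 and P33 and 13 at P10. Matn1, a cartilage matrilin, was listed at 0 at P21 and P33. The summed adipocyte markers were at 4.57 to 38.97 FPKM in lipochondrocytes and 85875.5 to 91445.9 in adipocytes. Keratinocyte markers summed to at most 3.73 FPKM in any group. The adipocyte fraction also held macrophage markers (752 to 815 FPKM summed, against 2.27 to 59.3 in lipochondrocytes) and endothelial markers (564 to 588 against 2.02 to 8.66).

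Of the 10 genes, 9 lie in 3 groups of neighbours on GRCm38. No other protein-coding gene of GENCODE M21 lies wholly within a gap between neighbours. Genes that overlap or span a gap were not looked for. Dcn (ENSMUSG00000019929.15, chromosome 10, 97479609 to 97518143), Lum (97565128 to 97572703), Kera (97606879 to 97613692) and Epyc (97644068 to 97682454) all lie on the plus strand, separated by 47.0, 34.2 and 30.4 kb. Aspn (ENSMUSG00000021388.13, chromosome 13, 49544443 to 49567565), Omd (ENSMUSG00000048368.8, 49582462 to 49592822) and Ogn (49608046 to 49624501) follow each other on the plus strand with gaps of 14.9 and 15.2 kb. Prelp (ENSMUSG00000041577.5, chromosome 1, 133910304 to 133921414, minus strand) and Fmod (ENSMUSG00000041559.7, 134037254 to 134048277, plus strand) point away from each other across 115.8 kb. Bgn (ENSMUSG00000031375.17, chromosome X, 73483602 to 73495933, plus strand) stands alone. The table gives 1 value per gene, so isoforms were not told apart.

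Neighbouring genes had differences of unlike size and sign, which were not tested against each other. Between P8 and P33, Dcn was higher by 4.75 on the log2(FPKM + 1) scale, while Lum next to it differed by -0.35 (not called, that is, an adjusted p by limma of 0.05 or more: 0.187), Kera by -1.47 and Epyc by -2.14. The added 1 FPKM compresses differences of genes as low as Kera and Epyc. By the ratio of means, P8 was 7.51-fold P33 for Kera and 18.9-fold for Epyc. Omd was higher by 5.01, whereas Aspn and Ogn on its sides differed by 1.63 and 0.16, the latter not called. Prelp and Fmod were both higher, by 3.34 and 4.13. These 2 stages differ in isolation as well as age.

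**Figure D1:**
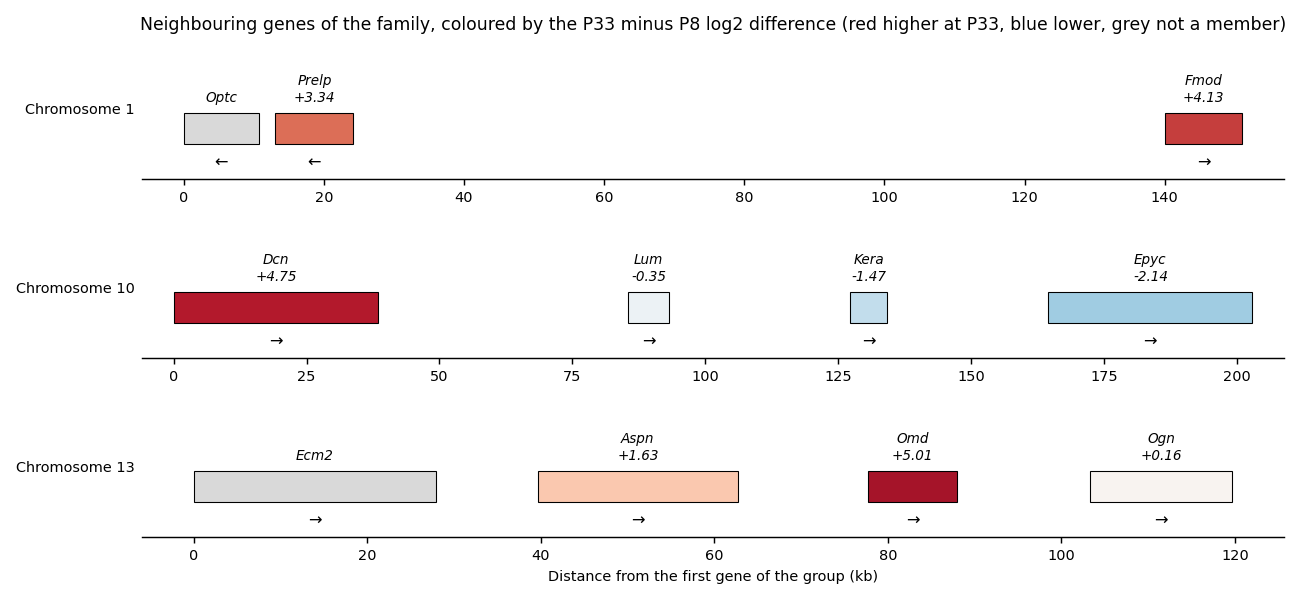
Family genes along 3 chromosomes, each row drawn to its own scale, with the distance in kb from the first gene of each group on the x axis and arrows for the strand. Colour and number give the P33 minus P8 difference on the log2(FPKM + 1) scale, from 5.01 for Omd to -2.14 for Epyc. This scale compresses the differences of low genes such as Kera and Epyc. Optc and Ecm2 are neighbouring relatives that are not among the 10 genes.

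Promoter sequences were available in RefSeq for 8 of the 10 genes (GRCm38.p6). The 250 bases before the start are shown, 5′ to 3′ on the strand of the gene, for the gene with the highest level before P33 (Bgn, chrX:73483351-73483600, plus), for 3 genes that were higher at P33 than at P8 (Fmod, chr1:134037004-134037253, plus; Prelp, chr1:133921402-133921651, minus; Omd, chr13:49582212-49582461, plus) and for one that was lower and near 0 at P33 (Epyc, chr10:97643818-97644067, plus, the first of its starts). Capitals mark matches to any of 9 searched motifs.
Bgn: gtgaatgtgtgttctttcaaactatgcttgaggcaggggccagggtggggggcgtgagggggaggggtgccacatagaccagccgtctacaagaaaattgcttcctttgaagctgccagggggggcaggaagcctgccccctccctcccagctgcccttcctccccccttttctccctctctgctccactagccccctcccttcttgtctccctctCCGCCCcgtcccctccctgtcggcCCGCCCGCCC
Fmod: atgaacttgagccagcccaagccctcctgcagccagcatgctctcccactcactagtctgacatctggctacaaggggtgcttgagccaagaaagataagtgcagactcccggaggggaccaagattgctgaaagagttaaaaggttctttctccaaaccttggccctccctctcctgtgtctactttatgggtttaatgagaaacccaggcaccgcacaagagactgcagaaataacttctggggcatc
Prelp: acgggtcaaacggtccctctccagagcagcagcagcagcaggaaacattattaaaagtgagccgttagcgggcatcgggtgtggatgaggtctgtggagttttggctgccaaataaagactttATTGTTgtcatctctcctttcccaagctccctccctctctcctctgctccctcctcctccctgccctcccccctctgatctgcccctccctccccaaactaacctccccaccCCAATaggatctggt
Omd: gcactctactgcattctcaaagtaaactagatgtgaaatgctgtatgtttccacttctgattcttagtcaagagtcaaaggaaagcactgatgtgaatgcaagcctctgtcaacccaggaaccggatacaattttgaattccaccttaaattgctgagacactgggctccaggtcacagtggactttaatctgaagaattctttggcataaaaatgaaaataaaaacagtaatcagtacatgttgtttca
Epyc: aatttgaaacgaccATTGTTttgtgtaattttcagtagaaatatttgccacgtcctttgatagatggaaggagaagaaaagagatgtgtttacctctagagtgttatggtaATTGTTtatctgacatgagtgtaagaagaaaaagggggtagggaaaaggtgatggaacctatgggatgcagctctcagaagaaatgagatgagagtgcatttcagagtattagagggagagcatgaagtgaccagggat

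The motifs were searched on both strands as exact letters: TATAAA (a core promoter element), CCAAT (bound by the factor NF-Y), GGGCGG (GC box), AACAAT (the core letters bound by SOX factors), CACCTG (an E-box), TGAGTCA (AP-1), TGACGTCA (cAMP response element), TTGCGCAA (C/EBP) and CAGACA (SMAD). Bgn was the only one of the 8 with GC boxes, 3 of them, with the last 2 overlapping at the start of the gene; 32.7% of 32851 RefSeq promoters of this length hold one. The Bgn window was also the richest in G and C (64.4%, against a median of 52.4% over all promoters). Omd stood at 38.4% and Aspn was the poorest at 30.0%. AACAAT occurred in 4 of the 8 (Prelp, Aspn, Kera and Epyc) and in 9.42% of all promoters, CCAAT in 3 (Prelp, Aspn and Kera) and in 33.8%, and TATAAA in 2 (Ogn and Aspn) and in 12.4%. The all-promoter shares were not matched for G and C. Aspn, Epyc (39.2% in its first window) and Kera (42.4%) lay below the lower quartile of all promoters (45.2%), and Prelp was at 55.6%. The windows of Fmod and Omd held none of the 9 motifs. The window of Kera lies in the first exon of the GENCODE model, whose start is upstream of that of RefSeq. A match describes letters in this window and no binding was measured.

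Together the 10 genes stood at a summed level of 8450.8 ± 304 FPKM (SD, n = 3) at P8, 8434.1 ± 249 at P10 and 7993.4 ± 103 at P13, then 11135.9 ± 900.3 at P21 and 12638.9 ± 2192 at P33. Adipocytes stood at 318 ± 14.2. The family thus took up 0.81% to 1.29% of all FPKM in each lipochondrocyte library and 0.0280% to 0.0311% in each adipocyte library. FPKM is a level per length of gene, so genes can be set side by side.

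What changed most was the makeup of this sum. Bgn made up 91.9% ± 0.942 of it at P8, 83.1% ± 1.32 at P10, 89.8% ± 1.52 at P13, 59.5% ± 9.62 at P21 and 37.9% ± 4.82 at P33. Dcn went from 1.89% ± 0.242 at P8 to 16.1% ± 5.06 at P21 and 34.9% ± 8.58 at P33, and Fmod from 1.59% ± 0.118 to 13.5% ± 3.40 and 18.9% ± 2.12. The ratio of Dcn to Bgn was 0.0206 ± 0.00286 at P8 and 0.952 ± 0.373 at P33, where P33 replicate 3 had 1.38. In adipocytes the sum was mostly Dcn (51.9% ± 0.0212), Prelp (24.3% ± 0.382) and Lum (11.5% ± 0.297), with Bgn at 6.22% ± 0.362.

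**Figure D2:**
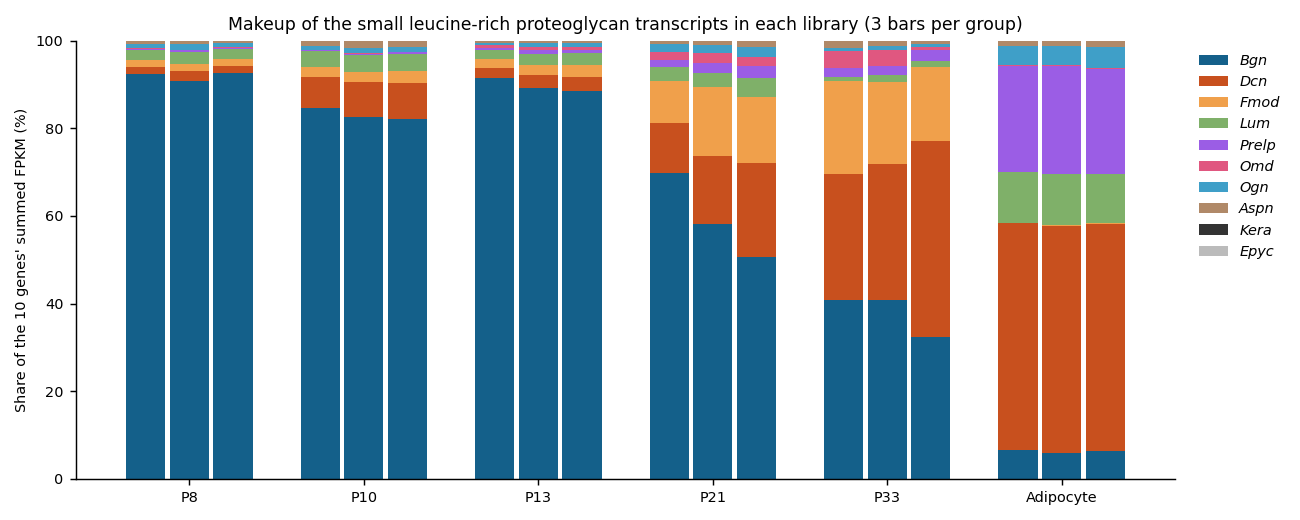
Share of the summed FPKM of the 10 genes taken by each gene (y axis, percent), with 1 bar per library and 3 bars per group. Bgn fills 90.9% to 92.6% of the P8 bars and 32.4% to 40.7% of the P33 bars, where Dcn fills 28.9% to 44.7%.

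Changes were tested in one limma model of log2(FPKM + 1) over all 18 libraries, and a gene is called at an adjusted p (Benjamini-Hochberg over all 13815 genes tested) below 0.05. All 10 genes passed the filter of 1 FPKM in at least 3 libraries, Kera through sorted libraries alone and Epyc through those and P21 replicate 1. Groups whose libraries do not overlap are common over all tested genes. The share was 34.0% for P10 against P8, 41.2% for P13 against P10 and 21.8% for P13 against P8. It was 52.7% for P21 against P13 and 22.2% for P33 against P21. From P13 to P21, the step at which the isolation also changed, 7 genes rose (Dcn, Fmod, Prelp, Omd, Ogn, Aspn and Lum), Kera and Epyc fell, and Bgn was not called. Over all genes, 43.1% were called, 36.0% higher and 7.04% lower. The median difference was 1.74 over the 10 genes and 0.289 over all genes. Rescaling the libraries by the median of ratios brought the all-gene median to 0.006 and the all-gene calls from 4977 higher and 972 lower to 2212 and 2214. Under it Lum lost its call (0.55, adjusted p = 0.0617) and Bgn fell (-0.58, adjusted p = 0.00136), as Bgn also did with columns rescaled to equal totals (-0.34, adjusted p = 0.0375). Markers of other cells rose at this step too: 7 of 7 tested skeletal muscle markers (sums of 74.7 to 513 FPKM at P21 against 23.1 to 36.4 at P13), 6 of 8 macrophage markers (16.4 to 27.2 against 3.27 to 3.92) and 6 of 6 tenocyte markers. Of 14 fibroblast and perichondrium markers 6 rose and 2 fell (sums of 5324 to 9777 FPKM against 2172 to 2831), and of 14 tested chondrocyte markers 7 fell and 2 rose (Comp and Chad). Their part in the result was not tested.

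**Figure D3:**
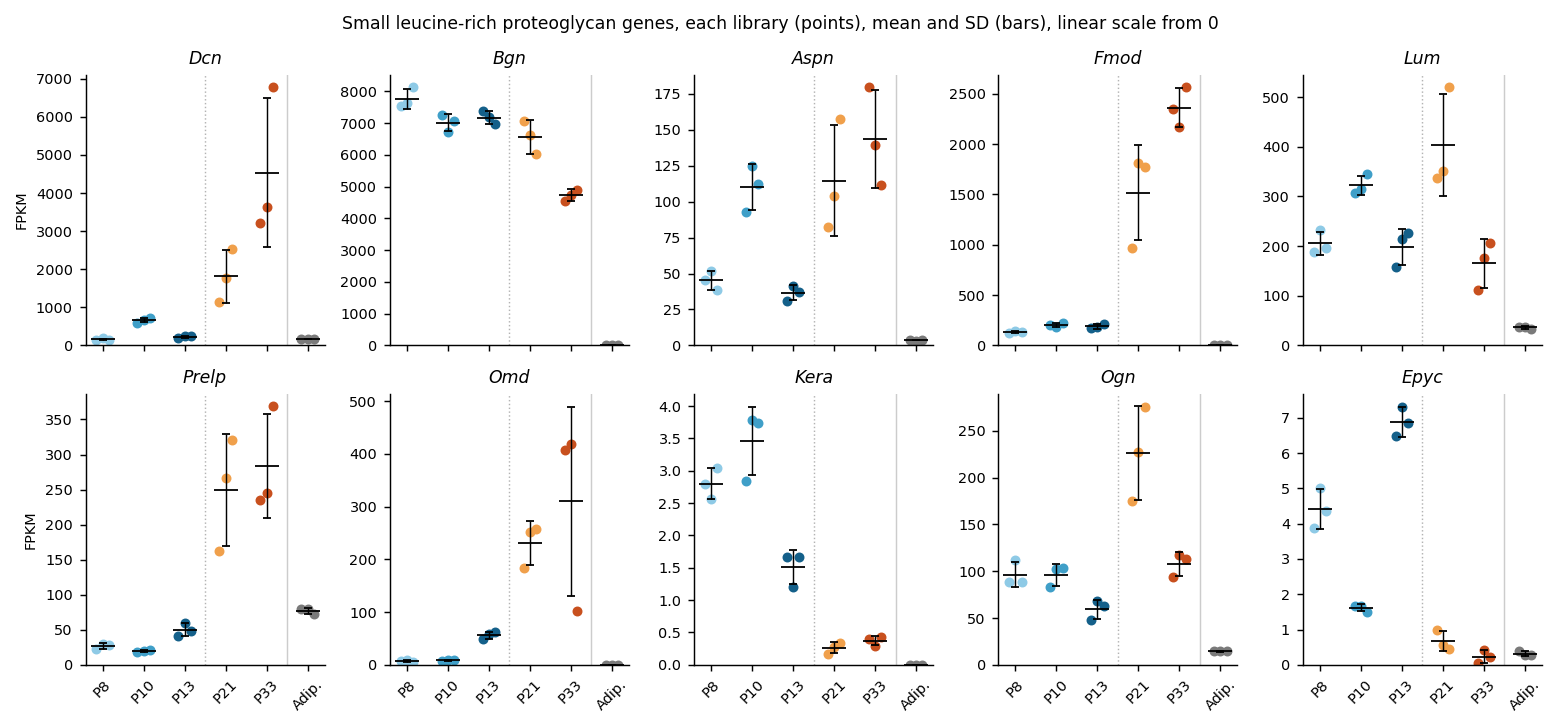
Level of each of the 10 genes (y axes, FPKM, linear from 0, a separate range per gene) in each group (x axis), with points for libraries and bars for the mean and SD of 3. The dotted line separates sorted from buoyant lipochondrocyte libraries; Dcn, Fmod, Prelp and Omd are high to the right of it and Kera and Epyc are low, at 0.43 FPKM or less for Kera and 1.0 or less for Epyc.

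Biglycan, the most abundant member in every lipochondrocyte library except P33 replicate 3, was at its highest mean level at P8 and its lowest at P33. Bgn was at 7540, 7641 and 8126 FPKM in the P8 libraries, 7246, 6725 and 7066 at P10, 7371, 7179 and 6975 at P13, 7067, 6637 and 6013 at P21 and 4535, 4736 and 4906 at P33. The P33 libraries lay below all others, and the younger groups lay close together. Its fall from P21 to P33 was called (-0.47, SE 0.10, adjusted p = 0.00706 by limma), and none of the neighbouring steps in the order P8, P13, P10, P21 was. P21 was called below P10 under median-of-ratios scaling (-0.83, adjusted p = 3.72e-05) and with columns rescaled to equal totals (-0.33, adjusted p = 0.0281). The fall from P21 to P33 was not called with only these 2 groups modelled (adjusted p = 0.361). Bgn ranked 12th among all genes at P8 and 40th at P33. In adipocytes Bgn was at 21.4, 18.8 and 19.1 FPKM, so P33 lipochondrocytes stood 239-fold higher by the ratio of means (log2 difference 7.83, SE 0.10, adjusted p = 1.46e-17).

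Decorin, the closest relative of biglycan, was highest at P33 and had a separate peak at P10. Dcn was at 148, 182 and 148 FPKM at P8, rose to 599.9, 660.4 and 708 at P10, and was at 185, 237 and 239 at P13. The P10 libraries overlapped with neither neighbour, while 34.0% of all tested genes did not overlap between P8 and P10 and 41.2% between P10 and P13. The rise was 2.04 (SE 0.27, adjusted p = 4.18e-04) and the fall 1.58 in size (-1.58, SE 0.27, adjusted p = 9.37e-04, both by limma). It then reached 1147, 1774 and 2536 FPKM at P21 (2.98, SE 0.27, adjusted p = 9.32e-07) and 3217, 3622 and 6780.1 at P33 (1.31, SE 0.27, adjusted p = 0.00634). The rise from P21 to P33 was not called with only these 2 groups modelled (adjusted p = 0.211). P33 replicate 3 was far above the other 2, and at 42nd among all genes at P33 Dcn stood next to Bgn in abundance. The 3 lowest groups, P13, adipocytes (170.2, 168 and 156 FPKM) and P8, were not called between neighbours (adjusted p = 0.193 and 0.877), though P13 was called above adipocytes under median-of-ratios scaling (adjusted p = 0.00226). Under that scaling P21 was no longer called above P10 (0.67, adjusted p = 0.0684).

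Asporin, the remaining member of that subgroup, also peaked at P10 among the sorted stages. Aspn was at 45.3, 51.9 and 38.5 FPKM at P8, 93.0, 124 and 113 at P10 and 31.0, 41.5 and 37.4 at P13. The rise of 1.26 (SE 0.22, adjusted p = 0.00304) and the fall (-1.56, SE 0.22, adjusted p = 1.94e-04) were both called by limma. At P21 it was at 82.4, 104 and 157 FPKM and at P33 at 179.5, 139 and 111, and these 2 groups and P10 were not called between neighbours in the order of levels (adjusted p = 0.378 and 0.969). Under median-of-ratios scaling P21 was below P10 (-0.71, adjusted p = 0.0191). Adipocytes had 3.78, 3.41 and 3.80 FPKM, and P33 lipochondrocytes were higher by 4.93 (SE 0.22, adjusted p = 1.91e-11).

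Fibromodulin, a collagen-binding member that guides fibril assembly, rose mainly between P13 and P21. Fmod was at 124, 145 and 134 FPKM at P8, 199.7, 185 and 225 at P10, and 168, 181 and 216 at P13. Every P8 library lay below the P10 and P13 ones, and P10 was 1.51-fold P8 by the ratio of means. No neighbours in the order P10, P13, P8 were called (adjusted p = 0.750 and 0.235), nor were P10 and P8 (0.59, adjusted p = 0.0649). P10 was called above P8 under median-of-ratios scaling (0.93, adjusted p = 0.0143) and with a replicate block (adjusted p = 0.0354). At P21 it was at 969.9, 1815 and 1771 FPKM, 8.06-fold the P13 mean (2.96, SE 0.19, adjusted p = 2.92e-08), and P21 replicate 1 was the lowest. At P33 it was at 2353, 2174 and 2563, above every P21 library (0.69, SE 0.19, adjusted p = 0.0367). That last call was lost without P21 replicate 1 (adjusted p = 0.0903) and without any of the P33 replicates (adjusted p = 0.0504 to 0.0842). It was also lost with a pseudocount of 0.1 (adjusted p = 0.0648), with no filter (0.0613) and with columns rescaled to equal totals (0.057). A model of P21 and P33 alone did not call it either (adjusted p = 0.318). In adipocytes Fmod was at 0.54, 0.52 and 0.86 FPKM, and its difference from P33 lipochondrocytes (10.50, SE 0.19, adjusted p = 6.85e-16) was the largest of the 10.

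Lumican, which resembles fibromodulin in sequence and shares its collagen site, was highest at P21 and, among the stages, lowest at P33. Lum was at 188, 232 and 197 FPKM at P8, 308, 315 and 344 at P10, 158, 213 and 226 at P13, 337, 352 and 521 at P21 and 112, 176 and 207 at P33. P10 and P21 were the high groups and P33 the lowest of the lipochondrocyte groups. In the order P21, P10, P8, P13, P33 no neighbouring pair was called (adjusted p = 0.0628 to 0.951), while P33 was below P21 (-1.30, SE 0.21, adjusted p = 0.00125) and P21 above P13 (1.00, SE 0.21, adjusted p = 0.00171). The fall from P10 to P13 (-0.71, adjusted p = 0.0272) lost its call without any of P10 replicates 1, 2 and 3 and P13 replicates 1 and 2 (adjusted p = 0.0503 to 0.106). With only P21 and P33 modelled, the fall between them was not called (adjusted p = 0.111). The ratio of Fmod to Lum went from 0.656 ± 0.0271 at P8 to 15.3 ± 5.05 at P33. Adipocytes stood at 37.9, 37.8 and 33.5 FPKM, below P33 lipochondrocytes (2.11, SE 0.21, adjusted p = 3.76e-07).

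PRELP, which binds heparan sulfate at one end and collagen at the other, was the one member called higher in adipocytes than in P8 and P10 cells. Prelp was at 22.0, 30.3 and 27.8 FPKM at P8, 18.6, 19.9 and 21.3 at P10, and 41.6, 59.9 and 48.8 at P13. It then stood at 162, 266 and 320.03 at P21 and 236, 245 and 369 at P33. P10 and P13 did not overlap (1.27, SE 0.23, adjusted p = 0.00113), nor did P13 and P21 (2.25, SE 0.23, adjusted p = 2.35e-06), while P21 and P33 did. Of all tested genes, 41.2% did not overlap between P10 and P13 and 52.7% between P13 and P21. Adipocytes, at 79.5, 80.0 and 72.5 FPKM, lay between the sorted and the buoyant lipochondrocytes, above P13 (0.63, SE 0.23, adjusted p = 0.0214) and below P21 (1.62, SE 0.23, adjusted p = 1.33e-05). The median difference of all genes for P13 against adipocytes was -0.557. The difference of Prelp from P13 was not called, with the opposite sign, under median-of-ratios scaling (0.11 higher at P13, adjusted p = 0.694), and lost its call with columns rescaled to equal totals (adjusted p = 0.0647). The differences from P8 and P10 kept their calls under both scalings.

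Osteomodulin had the largest rise of the 10 genes among sorted cells. Omd was at 6.93, 8.83 and 5.86 FPKM at P8, 7.96, 9.29 and 9.28 at P10, and 48.3, 58.8 and 61.4 at P13. All 3 P13 libraries were far above the P8 and P10 ones, with P13 6.35-fold higher than P10 by the ratio of means (2.53, SE 0.38, adjusted p = 3.33e-04), and P8 and P10 did not differ by the test (adjusted p = 0.693). At P21 it was at 184, 253 and 258 FPKM (2.01, SE 0.38, adjusted p = 7.14e-04) and at P33 at 408, 419 and 103.0. P33 replicate 3 lay below every P21 library and the other 2 above them, and P33 was not called against P21 (0.19, adjusted p = 0.842). Without P33 replicate 3 the difference was 0.85 and called (adjusted p = 0.0055). In adipocytes Omd was at 0.33, 0.37 and 0.18 FPKM, below P33 lipochondrocytes (7.66, SE 0.38, adjusted p = 7.88e-11) and below those of P8 (2.65, SE 0.38, adjusted p = 1.44e-05).

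Keratocan was low throughout and higher at P8 and P10 than at later stages. Kera was at 2.80, 2.56 and 3.05 FPKM at P8, 2.85, 3.79 and 3.74 at P10, and 1.66, 1.21 and 1.67 at P13. It was at 0.17, 0.28 and 0.34 at P21 and at 0.40, 0.29 and 0.43 at P33, and listed at 0 in every adipocyte library. P10 and P8 did not differ by the test (adjusted p = 0.184), P13 was below P10 (-0.83, SE 0.11, adjusted p = 1.10e-04), and P21 was below P13 (-0.99, SE 0.11, adjusted p = 4.67e-06). Differences at such levels are compressed by the added 1 FPKM: by the ratio of means, P13 was 5.75-fold above P21.

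Epiphycan, the growth plate member, alternated among the sorted stages and was near 0 afterwards. Epyc was at 3.87, 5.00 and 4.36 FPKM at P8, 1.66, 1.68 and 1.5 at P10 and 6.47, 7.31 and 6.84 at P13. No libraries of these 3 groups overlapped, with P10 below P8 (-1.05, SE 0.13, adjusted p = 2.16e-04) and P13 above P10 (1.59, SE 0.13, adjusted p = 1.52e-06). Of all tested genes, 34.0% did not overlap between P8 and P10, 41.2% between P10 and P13 and 21.8% between P8 and P13. At P21 it was at 1.00, 0.56 and 0.46 FPKM (-2.25, SE 0.13, adjusted p = 7.65e-09) and at P33 at 0.06, 0.42 and 0.22. Adipocytes were at 0.39, 0.27 and 0.27 FPKM, and Epyc was the only one of the 10 genes not called between P33 lipochondrocytes and adipocytes (-0.10, SE 0.13, adjusted p = 0.532).

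Osteoglycin, also called mimecan, had a single high group. Ogn was at 88.5, 112 and 88.8 FPKM at P8, 82.7, 102 and 103 at P10, 48.1, 67.8 and 62.5 at P13, 175, 228 and 275 at P21 and 93.3, 117 and 113 at P33. P21 lay above every other library, and P33 was not called against P8 (0.16, adjusted p = 0.470). The rise from P13 to P21 was 1.90 (SE 0.17, adjusted p = 7.20e-07) and the fall from P21 to P33 was called as well (-1.05, SE 0.17, adjusted p = 0.00119). That fall was not called with only P21 and P33 modelled (adjusted p = 0.0872). Under median-of-ratios scaling P33 was called below P10 (-0.51, adjusted p = 0.0199). Adipocytes stood at 14.4, 14.4 and 14.98 FPKM.

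**Figure D4:**
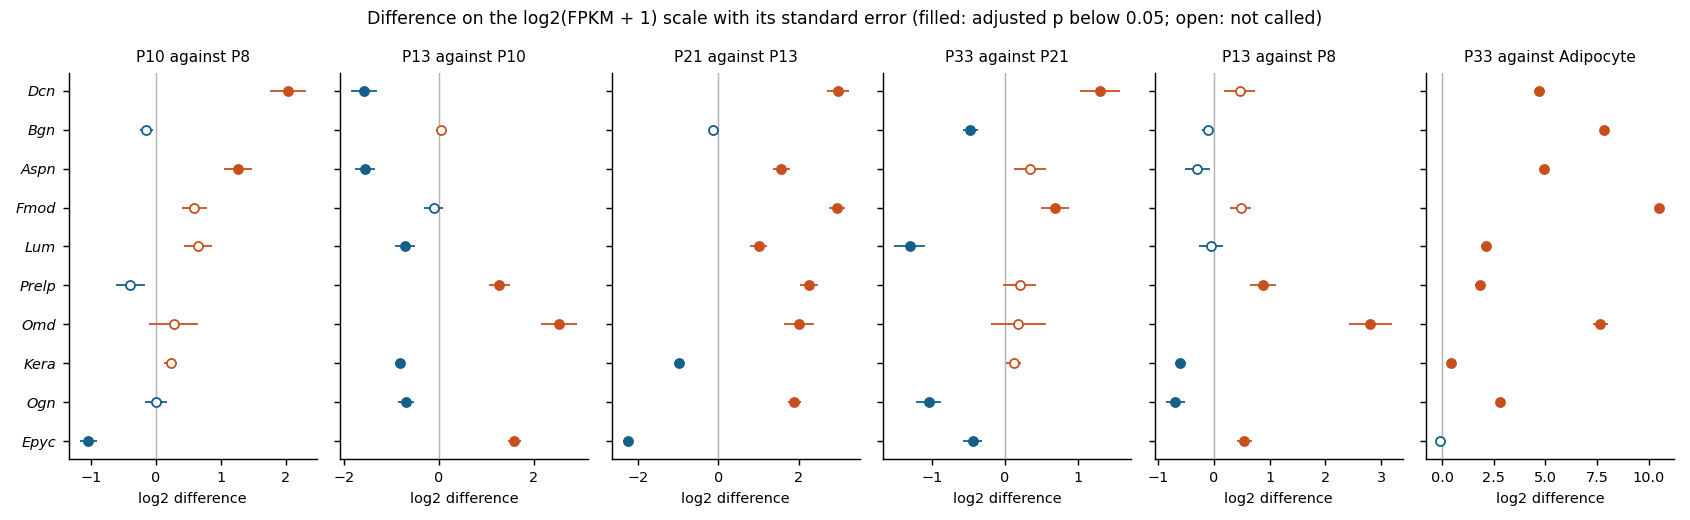
Difference of each gene in 6 comparisons (x axes, log2(FPKM + 1) scale, a separate range per panel), with its standard error as a bar; filled points have an adjusted p below 0.05. For P21 against P13, 7 filled points lie to the right, while P33 against P21 has 2 to the right (Dcn and Fmod) and 4 to the left (Lum, Ogn, Bgn and Epyc).

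Among the sorted stages, which share an isolation, the family moved in both directions. From P8 to P10, Dcn and Aspn rose and Epyc fell, against 1.90% of all genes called higher and 9.14% lower (11.0% in all). From P10 to P13, Omd, Epyc and Prelp rose and Dcn, Aspn, Kera, Lum and Ogn fell, against 18.6% and 4.03% (22.6% in all). Every member that was called in both steps (Dcn, Aspn and Epyc) went back in the opposite direction, and the 2 steps share the P10 libraries. From P8 to P13 directly, Omd (2.81, SE 0.38, adjusted p = 4.27e-04), Prelp (0.88, adjusted p = 0.0410) and Epyc (0.55, adjusted p = 0.0281) rose and Kera (-0.60, adjusted p = 0.00374) and Ogn (-0.69, adjusted p = 0.0305) fell, against 2.69% and 1.52% (4.21% in all). Omd kept its call under every alternative run. Kera, which a filter of 5 FPKM left out, kept its call under the others but the model of these 2 groups alone. In that model Omd was the sole call. The other calls were lost without single libraries: Prelp without P8 replicate 1, 2 or 3 or P13 replicate 2 or 3, Ogn without P8 replicate 1, 2 or 3 or P13 replicate 1 or 3, and Epyc without P8 replicate 1 or 3 or any P13 replicate. With no filter Prelp, Ogn and Epyc lost their calls (adjusted p = 0.0829, 0.0587 and 0.0609), with columns rescaled to equal totals Prelp and Epyc did (0.061 and 0.0515), and Epyc did with pseudocounts of 0.1 and 0.5 (0.367 and 0.0975). By the median of ratios, the P10 against P8 calls over all genes went from 262 higher and 1263 lower to 497 and 125, and those of P13 against P10 from 2567 and 557 to 1125 and 1183. Under that scaling Fmod (0.93, adjusted p = 0.0143), Lum (0.99, adjusted p = 0.0135) and Kera (0.50, adjusted p = 0.0113) also rose from P8 to P10.

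The summed fibroblast and perichondrium markers moved with these steps. The summed level of 14 such genes, which include collagen I and III chains, was 3612 to 5054 FPKM at P8, 6433 to 8528 at P10, 2172 to 2831 at P13, 5324 to 9777 at P21 and 5217 to 9350 at P33, and 417 to 433 in adipocytes. Col1a1, Col3a1 and Col1a2 held the largest parts of the sum at P10 (means of 2523, 2361 and 1935 FPKM). From P8 to P10, 4 of the 14 genes were called higher (Col3a1, Dpt, Postn and Ly6a) and 0 lower. From P10 to P13, 9 were lower and 1, Prrx1, was higher. Dpt, a fibroblast matrix gene, was at 8.04 ± 1.47, 51.5 ± 4.44 and 11.99 ± 1.60 FPKM (SD, n = 3) at P8, P10 and P13. Prrx1 had its lowest mean at P10, with 31.1 ± 3.86, 22.1 ± 4.13 and 37.9 ± 3.93 FPKM at these stages. Within P33, replicate 3 was highest in this sum (9350 FPKM, against 6200 and 5217), and also in Dcn, Lum, Bgn, Fmod, Prelp and Kera. Omd (103.0 FPKM, against 407.52 and 419.37) and Aspn (111, against 179.5 and 139) were lowest in that replicate. Ogn (113, against 93.3 and 117) and Epyc (0.22, against 0.06 and 0.42) lay between the others. The summed tenocyte markers, among them Tnmd and Thbs4, were at 90.6 to 113.9 FPKM at P8 and P10, 38.6 to 47.2 at P13, 101 to 192 at P21 and 164 to 314 at P33. In bulk libraries more cells of a type and more RNA per cell cannot be told apart. The part of these cells in the levels of the 10 genes was not tested.

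**Figure D5:**
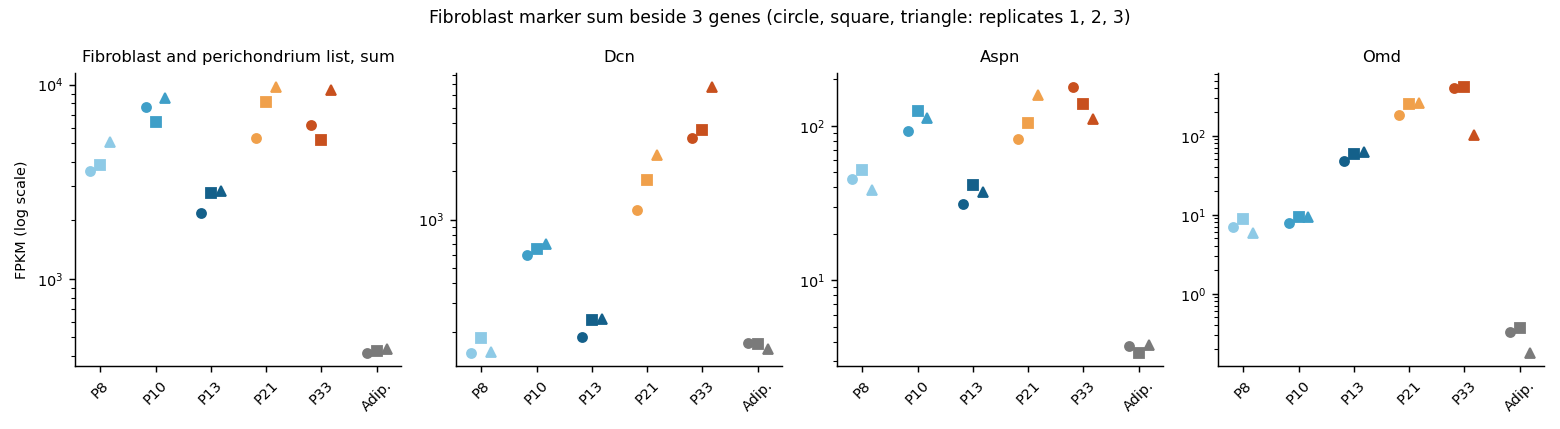
Summed FPKM of 14 fibroblast and perichondrium markers and FPKM of Dcn, Aspn and Omd (y axes, log scale) in each library by group (x axis), with circle, square and triangle for replicates 1, 2 and 3. The marker sum is higher in all 3 P10 libraries (6433 FPKM or more) than in the P8 and P13 ones, as are Dcn and Aspn, while Omd is low at P10 and high at P13.

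From P21 to P33, both buoyant fractions of ear cartilage, 2 genes rose (Dcn and Fmod) and 4 fell (Lum, Ogn, Bgn and Epyc), against 2.87% and 7.17% of all genes (10.0% in all). The fall of Epyc was at the threshold (-0.44, adjusted p = 0.0483) and was lost without P21 replicate 1 or 2 or P33 replicate 1 or 3 (adjusted p = 0.0748 to 0.179). It was also lost with no filter (adjusted p = 0.082), under median-of-ratios scaling (0.0691) and with columns rescaled to equal totals (0.0597). The main model took 1 spread per gene over all 6 groups. With only P21 and P33 modelled, 0 of the 10 were called (adjusted p from 0.0872 for Ogn) and 154 of all genes, against 1388. Macrophage markers moved as well, with 5 of 8 higher at P33 and sums of 31.5 to 59.3 FPKM against 16.4 to 27.2. Of 14 tested chondrocyte markers 6 were lower and 0 higher, and of 10 adipocyte markers 4 were lower and 0 higher. Fibroblast and perichondrium markers had 3 lower and 1 higher of 14. Among 6 tenocyte markers Thbs4 was higher and Tnc lower, and 1 of 7 tested skeletal muscle markers was lower. The part of these markers in the result was not tested.

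P33 lipochondrocytes and adipocytes, matched for age and buoyant isolation, differed in 9 of the 10 genes, all higher in lipochondrocytes, against 24.0% of all genes called higher and 44.5% lower (68.5% in all). Kera, among the 9, was at 0.29 to 0.43 FPKM against a listed 0, below the filter level of 1 FPKM in both groups. The median difference was 3.75 over the 10 genes and -0.280 over all genes, where scaling by the median of ratios gave -0.017 and moved the all-gene split from 3315 higher and 6151 lower to 4188 and 4825. No call or direction among the 10 changed under that scaling. At P8, sorted and younger, 8 genes were higher than in adipocytes (against 19.3% of all genes, with 71.5% called in all), Prelp was lower (-1.51, SE 0.23, adjusted p = 2.29e-05; 52.2% of all genes were lower) and Dcn was not called. By the median of ratios, the all-gene calls of that comparison went from 2668 higher and 7211 lower to 4242 and 4977. Under it the P8 difference of Dcn was 0.64 (adjusted p = 0.0596). The P8 and P33 comparisons share the adipocyte libraries.

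The remaining pairs of groups were used to order the levels. Of the 10 genes, 9 were called between P21 and P8 (45.1% of all genes), 8 between P33 and P8 (48.2%), 7 between P21 and P10 (60.0%), 8 between P33 and P10 (60.5%) and 9 between P33 and P13 (47.3%). Against adipocytes, all 10 were called at P10 (75.7%), 9 at P13 (71.8%) and all 10 at P21 (67.5%). The P21 count includes Kera and Epyc at means under 1 FPKM in both groups (0.263 against 0 and 0.673 against 0.31). Bgn was the gene not called between P21 and P8 (-0.24, adjusted p = 0.0604), and Lum the one between P33 and P13 (-0.30, adjusted p = 0.271). Both were called lower at the later stage under median-of-ratios scaling (Bgn -0.64, adjusted p = 4.69e-04; Lum -0.70, adjusted p = 0.0165) and with columns rescaled to equal totals (adjusted p = 0.00307 and 0.0405), 2 scalings that were run on these pairs after the data were seen. Lum was also called lower at P33 than at P8 under both (adjusted p = 0.0152 and 0.0166).

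Other members of the leucine-rich family and the genes that modify or bind these proteins were followed as lists. Their counts stand beside the all-gene shares of the same step: 36.0% higher and 7.04% lower from P13 to P21, 2.87% and 7.17% from P21 to P33, and 24.0% and 44.5% for P33 against adipocytes. Of 8 relatives (Optc, Chad, Chadl, Podn, Podnl1, Nyx, Tsku and Ecm2), 5 passed the filter, with a median difference of 0.80 from P13 to P21 against 0.289 over all genes. Chad, the cartilage protein chondroadherin, rose from 118 ± 50.7 FPKM at P13 to 3089 ± 1340 at P21 (4.67, SE 0.38, adjusted p = 2.46e-07), and Tsku rose too (1.61 ± 0.524 to 4.26 ± 0.846 FPKM, adjusted p = 0.00203). Chad was listed at 0 in all adipocyte libraries. Ecm2, next to Aspn on chromosome 13, rose from P10 to P13 (48.6 ± 3.95 to 86.8 ± 11.8 FPKM; 0.82, adjusted p = 0.00431), the step in which Aspn fell, and Podn fell from P21 to P33 (-0.74, adjusted p = 0.0250). At P33, Chad, Ecm2 and Chadl were above adipocytes and Podn below.

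Genes listed for keratan sulfate, the chain of the fibromodulin and lumican subgroup, were lower more often than higher where called at the step at which Fmod rose. The list includes genes that serve other sulfated chains as well, Papss1 and Papss2 among them. Of 16 listed, 14 passed the filter, and from P13 to P21 only Chst5, a sulfotransferase, was higher while Papss2, Papss1, Chst2 and Chst7 were lower (median difference -0.05), against 36.0% and 7.04% of all genes as deposited and 2212 higher and 2214 lower under median-of-ratios scaling. Papss2, which makes the sulfate donor for all such chains, was at 156 ± 7.83 FPKM at P8, 122 ± 11.7 at P13, 38.6 ± 17.8 at P21 and 18.7 ± 7.61 at P33 (P21 against P13 -1.74, SE 0.30, adjusted p = 3.10e-04; P33 against P21 -0.998, adjusted p = 0.0456). Fut8, Papss2 and Slc35b2 were lower at P33 than at P21. Against adipocytes, 4 were higher at P33 and 6 lower, among them Chst1, a keratan sulfate sulfotransferase, at 0.46 ± 0.17 against 85.6 ± 4.17 FPKM (-5.90, SE 0.16, adjusted p = 4.79e-14).

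Enzymes of the linkage region and of chondroitin and dermatan sulfate, the chains of biglycan and decorin, had 7 of 17 higher and Csgalnact1 lower at P21 than at P13 (median 0.26, against 0.289 over all genes), and 36.0% of all genes were higher and 7.04% lower. The higher ones included Chst12, a chondroitin sulfotransferase (39.9 ± 2.89 to 69.3 ± 7.04 FPKM; 0.78, adjusted p = 2.29e-04), and Ust (0.87). From P21 to P33, when 7.17% of all genes fell and 2.87% rose, 5 fell and 0 rose, led by Fam20b (-0.89, adjusted p = 8.34e-04), a kinase of the linkage sugar. Against adipocytes, 11 were higher at P33 (24.0% of all genes), led by Xylt1 (2.83, SE 0.16, adjusted p = 4.47e-10), which starts the chains, and Xylt2 and Dse were lower.

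Tpst1, which sulfates tyrosines such as those of fibromodulin and osteomodulin, rose from P10 to P13 (56.9 ± 2.92 to 84.7 ± 13.1 FPKM; 0.56, adjusted p = 0.00270) and fell from P13 to P21 (-0.53, adjusted p = 0.00163) and from P21 to P33 (-0.61, adjusted p = 0.00266). Of the 7 genes listed for tyrosine sulfation and propeptide processing, 5 passed the filter (median difference -0.0094 from P13 to P21). Pcolce, an enhancer of procollagen processing, was at 59.7 ± 3.21 FPKM at P8, 131 ± 11.6 at P10, 70.8 ± 9.99 at P13 and 254 ± 88.7 at P21, and all 3 steps were called (1.12, adjusted p = 0.0192; -0.88, adjusted p = 0.0287; 1.77, adjusted p = 1.12e-04). At P33, Pcolce2, Pcolce, Tpst1 and Bmp1, the protease that removes the biglycan propeptide, were above adipocytes and Tpst2 below.

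The collagens these proteins bind moved in both directions. From P13 to P21, Col1a1, Col1a2, Col12a1 and Col6a3 rose and Col2a1, Col9a1, Col11a1 and Col6a2 fell, out of 14 tested (median difference -0.31), against 36.0% and 7.04% of all genes. Col1a1 was at 512 ± 77.9 FPKM at P13 and 3171 ± 1166 at P21 (2.57, SE 0.30, adjusted p = 9.08e-06), and Col2a1, the main cartilage collagen, at 4247 ± 493 and 929 ± 76.5 (-2.19, SE 0.17, adjusted p = 1.60e-07). From P21 to P33, 7 fell and 0 rose, against 7.17% and 2.87% of all genes, with Col2a1 reaching 223 ± 30.0 FPKM (-2.06, SE 0.17, adjusted p = 2.96e-06). From P8 to P10, Col3a1 alone was called, higher by 1.07 (adjusted p = 0.00278; 1.90% of all genes were higher and 9.14% lower), and from P10 to P13 Col9a1 and Col11a1 rose and 7 fell (18.6% and 4.03% of all genes), led by Col1a1 (-2.29, adjusted p = 1.10e-04). All 14 were above adipocytes at P33, against 24.0% of all genes.

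Growth factors of the transforming growth factor beta and BMP families, and their receptors and SMADs, had 15 of 16 genes tested. From P13 to P21, 7 were higher and Bmp2 was lower (median difference 0.42), against 36.0% and 7.04% of all genes and an all-gene median of 0.289. Tgfb2 went from 1.80 ± 0.343 to 25.6 ± 5.09 FPKM (3.24, SE 0.22, adjusted p = 3.50e-08), and the receptor Tgfbr2 from 6.57 ± 0.550 to 17.5 ± 0.683 (1.29, adjusted p = 1.21e-05). At P33, Tgfb2, Bmp5, Tgfb3, Bmp2 and Smad4 were above adipocytes, and 5 others below.

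For the 8 genes whose mean reached 10 FPKM at any stage, the most alike courses over the 15 lipochondrocyte libraries were listed among 4013 genes. Closest by Pearson's r were Igfbp6 (0.983) and Adamts2 (0.980) to Dcn, Nr1d1 (0.993) and Fxyd6 (0.990) to Fmod, Arhgdib (0.991) and Sdf4 (0.991) to Prelp, and Neat1 (0.986) and Fxyd3 (0.981) to Omd. For Bgn they were Mthfd2 (0.955) and Eln (0.946), the elastin gene, which was at 28103 ± 5078 FPKM at P8 and 2396 ± 901 at P33. Those of Ogn were Cpm (0.929) and Mfap4 (0.909), of Aspn the tenocyte gene Tnmd (0.943) and F3 (0.897), and of Lum Eif4ebp1 (0.912) and Eif2s2 (0.818). Within the family, Fmod and Prelp had 0.951, Fmod and Dcn 0.941, Omd and Prelp 0.927 and Fmod and Lum 0.0472. Libraries of a group share their stage and isolation, so these values describe 5 stages more than 15 independent points, and no p is given.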

How the data were processed

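RNA from 15 lipochondrocyte and 3 adipocyte libraries was sequenced. The expression table deposited by the authors gives FPKM per gene and library with 2 decimals, and the submitters' processing notes name STAR 2.4.2a and mm10. Which quantifier and annotation were used is not given in the sources used here. Read count per library and percent aligned come from another file, per the file headers. Since gene counts were not used, depth per gene is unknown and values have no counting interval. A 0 in the table can also be a failed estimate.

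From these values log2(FPKM + 1) was computed, 13815 genes were kept (1 FPKM or more in 3 or more of 18 libraries), and 6 group means were fitted with limma 3.58.1 in R 4.3.3 (moderated, with trend). All 15 pairs of groups were tested two-sided; 6 are the main comparisons. The script was tested on simulated data. Coordinates are from GENCODE M21, which holds 98.9% of the gene identifiers, ignoring versions, and promoters from RefSeq (GRCm38.p6). All 155 list genes matched by symbol. Genes named besides the 10 are up to 3 called genes per list and comparison with the largest change, the called members of counts of 7 or fewer, markers, Papss2 and Dpt at further stages, and the 2 most alike genes, leaving out predicted genes. Dpt, Prrx1 and the pairs of genes whose ratio or correlation is given were chosen after their values were seen. The 10 genes, the lists and the tests were chosen with earlier results of these data known. Alternatives were other pseudocounts (0.1 and 0.5), filters, scalings and models, a replicate block and leaving out each library. Plots used Python 3.11.15 and matplotlib 3.10.9.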

Additional observations from a re-analysis of the deposited data

How the results depend on the processing

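The direction of every called difference of the 10 genes held in all 6 main comparisons under the alternatives run. The number of the 10 genes called from P8 to P13 (5 as reported) was 2 with no filter on low values, 3 with columns rescaled to equal totals, 1 with only these 2 groups modelled and 2 to 3 leaving out a library. From P8 to P10 (3 as reported) it was 6 under median-of-ratios scaling and 3 in each fit leaving out a library. From P21 to P33 (6 as reported) it was 0 with only these 2 groups modelled and 4 to 6 leaving out a library. From P10 to P13 it was 7 to 8, from P13 to P21 9 in each, and against adipocytes 9 in each, leaving out a library. Neighbouring groups in the order of levels were called in 27 of 50 pairs, and in 23 to 31 under the other settings.

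Replicate numbers are not stated to pair libraries, and deviations from the group means of same-numbered libraries correlated at a median of 0.0248 (-0.168 to 0.306), against -0.00565 for other numbers. With the replicate number as a block, 5 genes were called from P8 to P10 in place of 3, Fmod and Lum being added, and Epyc lost its call from P21 to P33 (adjusted p = 0.0544).

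In the 6 main comparisons, differences that changed sign were all uncalled. From P8 to P10, Bgn became 0.19 and Ogn 0.33 under median-of-ratios scaling, and Ogn ranged from -0.060 to 0.11 leaving out a library (0.11 without P8 replicate 2, 0.10 without P10 replicate 1). From P10 to P13, Bgn became -0.25 under that scaling. From P8 to P13, Lum ranged from -0.16 to 0.10 (0.034 without P8 replicate 2, 0.10 without P13 replicate 1). From P21 to P33, Prelp ranged from -0.073 (without P21 replicate 1) to 0.42, and Omd from -0.16 (without P33 replicate 2; -0.14 without P33 replicate 1) to 0.85 (without P33 replicate 3). Epyc against adipocytes ranged from -0.20 to 0.0081 (without P33 replicate 1).

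The scalings were also run on the other 9 pairs of groups, an addition chosen after seeing the data. Of the called differences there, Prelp at P13 against adipocytes changed sign under median-of-ratios scaling (0.11). The other sign changes were of uncalled differences. Under median-of-ratios scaling they were Ogn (-0.18) at P33 against P8, Dcn (0.64) at P8 against adipocytes, Lum (-0.44) and Aspn (-0.71) at P21 against P10, and Ogn (-0.51) and Aspn (-0.31) at P33 against P10. With columns rescaled to equal totals they were Ogn (-0.20) at P33 against P8, Dcn (0.13) at P8 against adipocytes, Aspn (-0.22) at P21 against P10 and Ogn (-0.17) at P33 against P10. By limma under median-of-ratios scaling, Aspn at P21 (adjusted p = 0.0191) and Ogn at P33 (adjusted p = 0.0199) were called below P10.

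All-gene calls from P8 to P10 (1525 as reported) were 985 with no filter, 622 under median-of-ratios scaling, 274 with only these groups modelled, and 633, 914, 505 and 768 without P8 replicates 2 and 3 and P10 replicates 1 and 2. From P10 to P13 (3124) they were 1921 without P10 replicate 1. From P8 to P13 (581) they were 326 with only these groups modelled, 382 without P8 replicate 1 and 339 without P13 replicate 3. From P21 to P33 (1388) they were 894 without P21 replicate 2 and 154 with only these groups modelled. Against adipocytes (9466) they were 6189 with a filter of 5 FPKM, which tests fewer genes and leaves out Kera. The causes were not tested further. Values under 1 FPKM, which cover Kera and Epyc from P21 on except Epyc in P21 replicate 1 (1.0 FPKM), carry the least precision here.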
